A study of Caenorhabditis elegans with 2 samples.

Results

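The heat-inducible chaperone genes hsp-16.1, hsp-16.11, hsp-16.2, hsp-16.41, hsp-16.48, hsp-16.49 and hsp-70, together with hsf-1, which encodes the heat shock transcription factor, were examined for regions bound by the tagged nuclear hormone receptor NHR-20. They were taken by name from the WBcel235 annotation of Caenorhabditis elegans, and all 8 were found among 19973 protein-coding genes of the nuclear genome. For each gene, every summit inside the gene or within 2 kb upstream of its annotated start was collected. A summit is the position of highest enrichment within a called region.

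Heat shock genes are kept at low activity in unstressed animals and are switched on within minutes when proteins unfold. HSF-1, held back by chaperones until they are called away by damaged proteins, then binds heat shock elements, which are short inverted repeats of the unit GAA close to the start of these genes. The hsp-16 genes encode small heat shock proteins that hold unfolding proteins in a soluble state, and hsp-70 encodes an inducible chaperone that refolds them with energy from ATP. Nuclear hormone receptors are transcription factors with a zinc-finger DNA-binding domain, many of which answer to lipid-like ligands, and NHR-20 belongs to the large set of them in nematodes.

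Chromatin immunoprecipitation with an antibody against GFP, followed by sequencing, was carried out on whole hermaphrodite L1 larvae of strain OP515. The strain has the genotype unc-119(tm4063) III; wgIs515, and its inserted transgene stably produces NHR-20 with GFP and FLAG at the C-terminus, while the promoter that drives it is not given in the sources used here. Worms were synchronized by bleaching and starvation as L1 larvae and taken 6 hours later. Both biological replicates have this genotype and stage and make up the only group, so there was no contrast to test, and the labels name no heat shock. In whole larvae, strong signal in a few cells and weak signal in many cannot be told apart.

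The authors deposited a list of 30000 candidate regions for each replicate and another for the replicates pooled. Candidates include regions at background level. The thresholded list holds the 6423 regions that the authors deposited as thresholded on the irreproducible discovery rate. They were the strongest 6423 of the pooled list by signal, and 98.5% of them had a summit within 200 bp in both replicates. The signal is the authors' enrichment value over the control, ran from 17.4 to 2711 with a median of 33.3 in the pooled list, and can be compared only within a list. Untagged worms were not analysed here, and a summit alone cannot be taken as NHR-20 on the DNA. Summits were also ranked by signal within each list, where rank 1 is the strongest.

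The small heat shock genes lie in divergent pairs, and 3 stretches of DNA between divergent starts are shown so that intervals with and without a summit can be compared. They are printed on the plus strand of ce11, with capitals on letters that match the heat shock element as GAANNTTC or TTCNNGAA, or as 3 alternating units with 2 letters between units. The first is chrV:1804958-1805177, the whole interval between hsp-16.2 and hsp-16.41, where the pooled summit is base 135. The second is chrV:9087821-9088028, 208 of the 348 bp between hsp-16.1 and hsp-16.48. It covers the letters between the parts that align to the annotated hsp-16.11 and hsp-16.41. It therefore ends inside a match with 3 units, 111 bp upstream of hsp-16.48, whose last letters are not printed. The same letters stand on the opposite strand at chrV:9089869-9090076 between hsp-16.49 and hsp-16.11. The last, chrII:11759376-11759576, is centred on the summit between F44E5.4 and F44E5.5, the nearest relatives of hsp-70 in the genome, with the summit at base 101.
between hsp-16.2 and hsp-16.41: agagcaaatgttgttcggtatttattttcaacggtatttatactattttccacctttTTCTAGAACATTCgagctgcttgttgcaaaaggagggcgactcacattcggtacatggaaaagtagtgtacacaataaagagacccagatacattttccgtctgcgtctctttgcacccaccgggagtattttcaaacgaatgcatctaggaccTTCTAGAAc
between hsp-16.1 and hsp-16.48: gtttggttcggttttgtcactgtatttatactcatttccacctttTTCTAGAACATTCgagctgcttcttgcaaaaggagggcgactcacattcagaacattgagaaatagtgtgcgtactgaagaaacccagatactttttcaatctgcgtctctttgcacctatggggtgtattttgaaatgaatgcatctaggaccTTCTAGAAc
between F44E5.4 and F44E5.5: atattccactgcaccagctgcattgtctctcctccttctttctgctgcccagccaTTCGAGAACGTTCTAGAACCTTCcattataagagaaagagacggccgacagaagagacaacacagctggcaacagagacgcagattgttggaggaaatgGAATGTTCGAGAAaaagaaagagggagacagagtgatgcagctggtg

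A candidate summit was found for 3 of the 8 genes (hsp-16.2, hsp-16.41 and hsp-16.48), where 61.0% of all protein-coding genes had one (95% exact binomial interval 60.4 to 61.7). A thresholded summit was found for 2 of the 8, hsp-16.2 and hsp-16.41, which share it, where 28.0% of all genes had one (27.4 to 28.7). The remaining 5 genes, hsp-16.1, hsp-16.11, hsp-16.49, hsp-70 and hsf-1, had no pooled candidate at all. Members that share a promoter or a sequence are not separate observations, so the 8 genes amount to 4 loci.

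The strongest region of any member lay between hsp-16.2 and hsp-16.41, at chromosome V position 1805092, in the interval of 220 bp that separates the starts of the genes. hsp-16.2 (WBGene00002016) occupies V 1804334 to 1804957 on the minus strand and hsp-16.41 (WBGene00002018) V 1805178 to 1805875 on the plus strand, each with 2 exons. The summit was 135 bp upstream of hsp-16.2 and 86 bp upstream of hsp-16.41, which puts it 61.1% of the way from the start of hsp-16.2. It therefore lay nearer to hsp-16.41, but a single region served both starts.

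In the pooled list this summit had a signal of 268 and a −log10 q-value of 4.18. That is the highest q-value on this scale in the list, but it is shared with weaker regions and does not single out this summit. A nearby candidate at 1804250, outside the thresholded list with signal 74.7, also had 4.18. Nearby candidates at 1805952 and 1806187 had 3.52 and 0.146. The rank of the summit with signal 268 was 1763 of 30000, within the strongest 5.88% of candidates and the strongest 27.4% of thresholded regions. Replicate 1 placed its own summit at the same base, with signal 194 and rank 1499, within the strongest 5.00% of that list. Replicate 2 placed it 42 bp away at 1805050, with signal 67.1 and rank 2827, within the strongest 9.42%. Both replicates thus held the region, and it ranked lower in replicate 2. In the order of genes by their strongest summit, both members and srt-41, a serpentine receptor gene whose upstream window also takes in the summit, tied at rank 2002 of 12191 genes with a candidate. Y48G8AL.13 stood just above with 269, and vha-9, which encodes a subunit of the vacuolar proton pump, just below with 268.

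A summit between divergent genes was not unusual in these lists. Among 1696 pairs of divergent protein-coding genes with starts under 1000 bp apart, 854 (50.4%) had a candidate between them and 590 (34.8%) a thresholded summit. The strongest summit of those 590 pairs had a median signal of 244, and 257 of them (43.6%) were stronger than the summit between hsp-16.2 and hsp-16.41.

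Weaker candidates flanked the pair just beyond the 3′ end of each gene. The first, at 1804250, was 84 bp past the end of hsp-16.2 and 928 bp upstream of hsp-16.41, with a pooled signal of 74.7 at rank 7239. The other, at 1805952, was 77 bp past the end of hsp-16.41 and 995 bp upstream of hsp-16.2, with a pooled signal of 65.1 at rank 8195, and it was also upstream of srt-42, another serpentine receptor gene. They lay 842 and 860 bp from the thresholded summit, so the 3 regions were almost evenly spaced. A further candidate at 1806187, 1230 bp upstream of hsp-16.2, had a signal of 19.7 at rank 26423.

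These 3 flanking candidates appeared in replicate 1 and not in replicate 2. Replicate 1 listed them at ranks 5904, 5495 and 11722, in the order given, and replicate 2 had no summit within 200 bp of any of them. Among the 3577 pooled candidates ranked just below the thresholded list, from 6424 to 10000, 98.2% had a match in replicate 1 and 90.3% in replicate 2, and 341 (9.53%) matched replicate 1 only. In the part of the list from rank 20001 to 30000, which takes in the weakest flanking candidate, 40.6% matched replicate 1 only. Replicate 2 also listed a second summit at 1805251, in the untranslated exon of hsp-16.41, 73 bp downstream of its start, with signal 21.1 and rank 10106. It lay 159 bp from the central summit of the pooled and replicate 1 lists, within the match distance. The central summit was thus the only region of this locus found in both replicates.

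**Figure D1:**
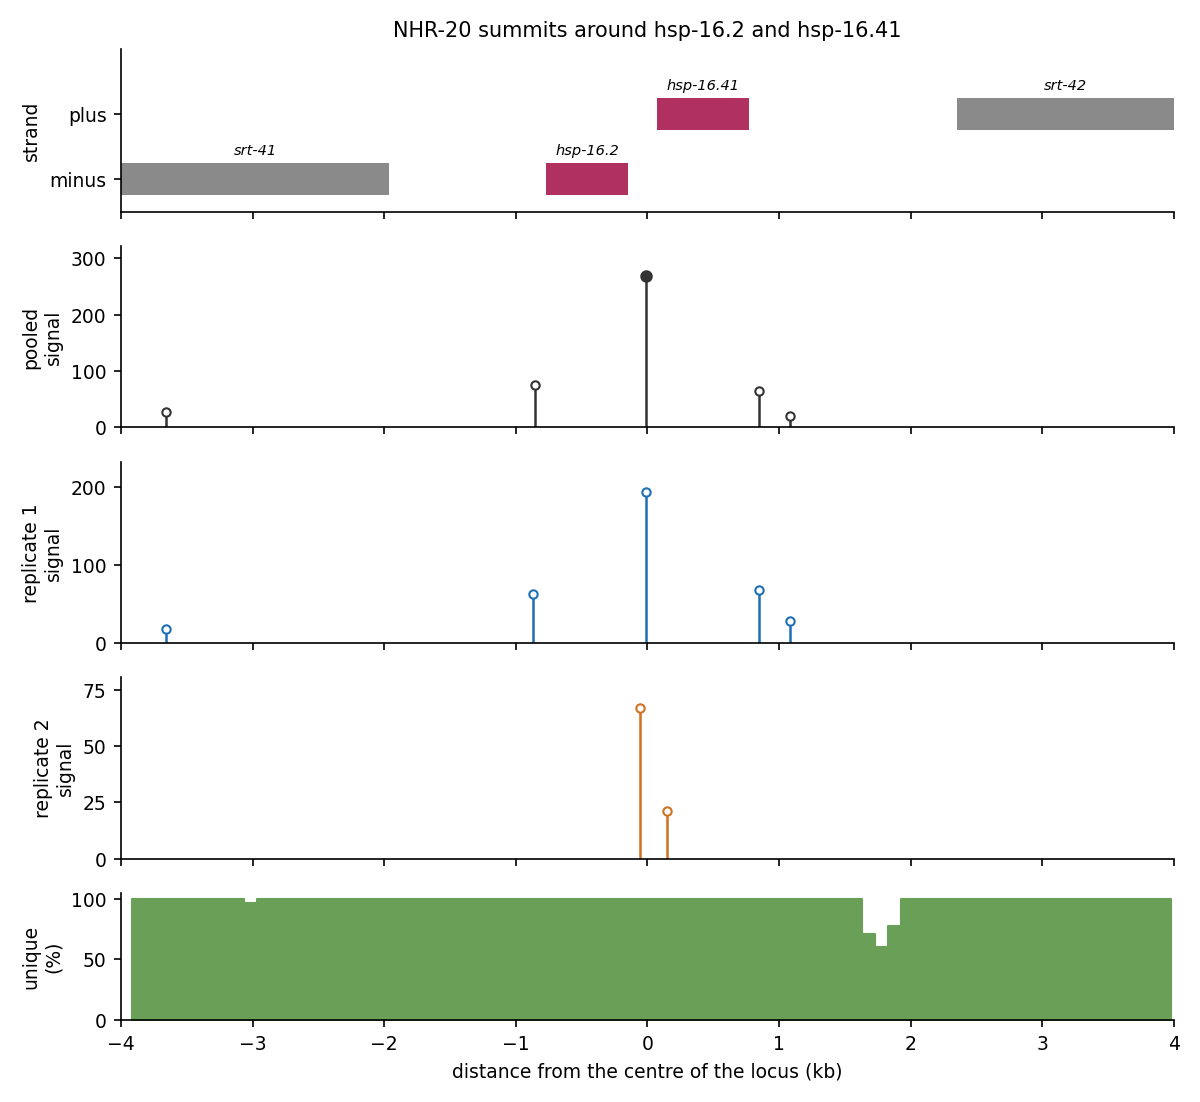
Signal of each summit (vertical axes, one per list, in the units of the authors' caller) against distance from the centre of the hsp-16.2 and hsp-16.41 locus in kb, with genes by strand on top and the share of 50-base windows that occur once in the genome at the bottom, per 100 bp. Filled points are thresholded summits of the pooled list; the summit with signal 268 lies between both genes, and replicate 2 shows no summit at the flanking candidates of the pooled list.

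The other small heat shock genes of the set stand together in a cluster 4 genes long on chromosome V. hsp-16.1 (WBGene00002015) spans V 9087293 to 9087782 on the minus strand, hsp-16.48 (WBGene00002019) 9088131 to 9088617 on the plus strand, hsp-16.49 (WBGene00002020) 9089280 to 9089766 on the minus strand and hsp-16.11 (WBGene00002017) 9090077 to 9090604 on the plus strand. They form 2 divergent pairs, hsp-16.1 with hsp-16.48 and hsp-16.49 with hsp-16.11. No list, pooled or single replicate, held a summit in any of the 4 genes or in either interval between divergent starts.

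These pairs are copies of each other. An inverted repeat joins V 9086851 to 9088741 with V 9089156 to 9091046, with 1891 aligned bases, 1 mismatch and no gap (99.95% identity). The coding sequences of hsp-16.1 and hsp-16.11 are identical over 435 bases and those of hsp-16.48 and hsp-16.49 over 429 bases. The annotated start of hsp-16.11 lies farther upstream than that of hsp-16.1, so the annotated intervals between starts are 310 and 348 bp long although the underlying letters are the same. Because of the repeat, 0% of the 50-base windows in either pair occur once in the genome, and a read of that length from there cannot be placed on one copy. The read length and the treatment of reads with several matches were not given in the sources used here.

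Over the whole window of gene and 2 kb upstream, the share of unique 50-base windows was 19.0% for hsp-16.1, 18.7% for hsp-16.11, 29.9% for hsp-16.48 and 25.9% for hsp-16.49. With 100-base windows the highest of these shares was 30.6%. The other members had 98.0% (hsp-16.2), 100% (hsp-16.41), 100% (hsp-70) and 97.9% (hsf-1), and the median over all genes was 100%. Only 431 genes (2.16%) had under 50%, and of these 9.05% had a candidate summit and 3.71% a thresholded one. The 4 cluster genes, of which 1 had a candidate and none a thresholded summit, belong to this group.

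The lists as a whole showed the same gap in repeated sequence. The genome holds 733 runs of at least 1000 windows of 50 bases with no unique window, and 1539 kb of them lies at least 200 bp from their ends. Not a single region of the pooled, thresholded or replicate lists had its summit there, where the average density over the genome would give 460 candidates and 99 thresholded summits. Both arms of the hsp-16.1 repeat, 1881 and 1891 bp long as runs without a unique window, are among these runs. At these 4 genes, a lack of NHR-20 and a lack of reads with a single match cannot be told apart.

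**Figure D2:**
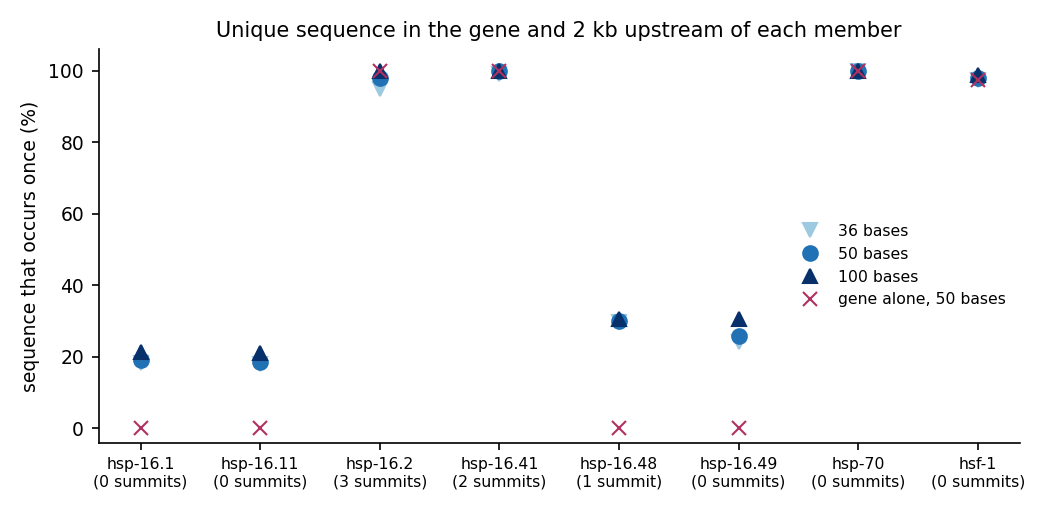
Share of windows that occur once in the genome (vertical axis, %) for the gene and 2 kb upstream of each member, with windows of 36, 50 and 100 bases, and for the gene alone with 50 bases (crosses). hsp-16.1, hsp-16.11, hsp-16.48 and hsp-16.49 lie between 18.0% and 30.6%, and their genes alone are at 0%.

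Sequence that can be mapped does exist beside the repeat. The spacer between the arms is unique and held no summit in any list. Left of the cluster, 1 candidate reached the window of hsp-16.48, at 9086142, 1989 bp upstream of its start and so barely inside the limit of 2 kb. It had a pooled signal of 63.3 at rank 8387, below the lowest thresholded signal of 86.0. Replicate 1 listed it with signal 47.9 at rank 7519, and replicate 2 had its nearest summit 117 bp away with signal 16.7 at rank 14090. Outside the limit, the nearest pooled summit upstream of hsp-16.49 was 3443 bp away, with signal 31.1.

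Right of the cluster, replicate 1 listed a weak summit at 9091613, 1847 bp upstream of hsp-16.49, with signal 12.0 at rank 26524. Replicate 2 listed one at 9091802, with signal 11.5 at rank 24676, which at 2036 bp upstream was outside the window, and the pooled list had neither. The summit of replicate 1 fell on the snRNA gene T27E4.12, in a partial copy of the outer end of the repeat. Pooled summits were lacking from 9086142 to 9093209, a stretch of 7067 bp, and 10.4% of the 29994 stretches between neighbouring pooled summits were longer (median 1387 bp). Farther right, beyond T27E4.1, the nearest protein-coding neighbour at 1741 bp, strong regions followed at 9094431 (signal 729, rank 273) and 9095849 (signal 836, rank 178). T27E4.7, the nearest such gene on the left at 10971 bp, had a strongest summit of 157. Left of the cluster the strongest summit within 10 kb, at 9079338, had signal 348 at rank 1213. Thresholded summits thus stood on both flanks of the cluster.

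**Figure D3:**
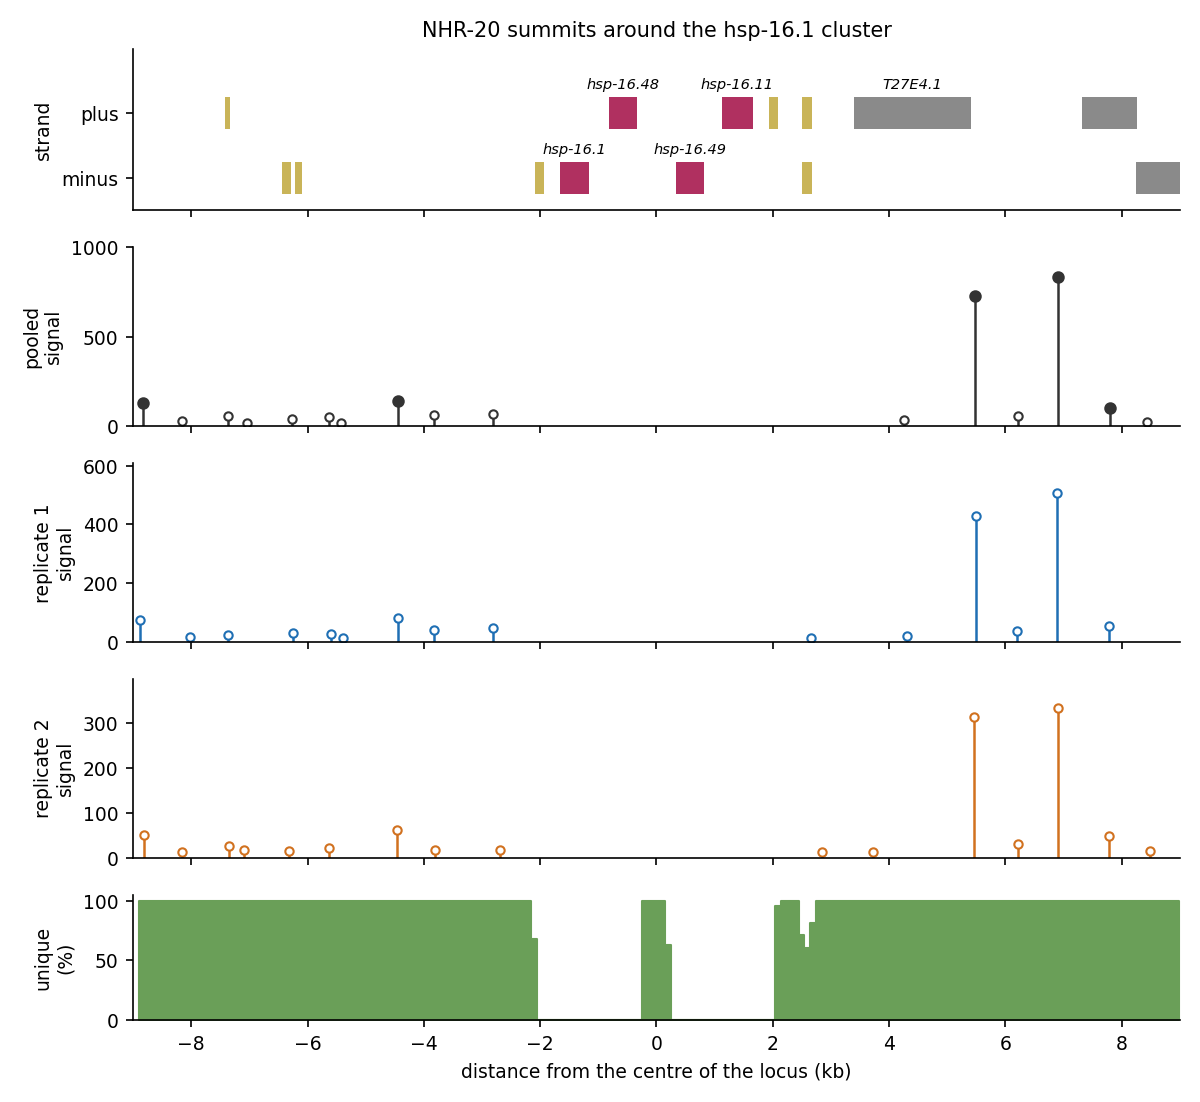
Signal of each summit (vertical axes, one per list, in the units of the authors' caller) against distance from the centre of the hsp-16.1 cluster in kb, with member genes in red, other protein-coding genes in grey and noncoding genes in yellow. Filled points are thresholded; no list has a summit where the bottom track, the share of unique 50-base windows per 100 bp, falls to 0%.

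hsp-70 (WBGene00002026), the inducible HSP70 gene, occupies I 9320325 to 9322519 on the minus strand with 3 exons, inside the span of uggt-2, which runs on the plus strand and encodes a relative of the glucosyltransferase that checks protein folding in the endoplasmic reticulum. Its window is 100% unique, so the repeat seen at the cluster is not present here. No pooled candidate lay in the gene or 2 kb upstream. The nearest was 2440 bp downstream of the start, past the 3′ end and close to the tRNA genes C12C8.t1 and C12C8.t6, with signal 31.5 at rank 15897. The nearest thresholded summit, 5383 bp downstream, had signal 111 at rank 4975.

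Each replicate listed 1 weak region at hsp-70 that the other did not. Replicate 1 had a summit in the coding exon, 47 bp downstream of the start, with signal 13.5 at rank 23601. Replicate 2 had a summit 1624 bp upstream, with signal 17.4 at rank 13240. Neither entered the pooled list. The pooled list was empty from 9320079 to 9327848, a stretch of 7769 bp, and 9.32% of stretches were longer. Both outer neighbours had thresholded summits, with strongest signals of 188 for F26H9.5 and 124 for cbl-1, a cystathionine lyase gene.

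hsf-1 (WBGene00002004) spans I 11953507 to 11963085 on the minus strand, with 9 exons and 2 annotated transcripts. No list held a summit in its window of 11579 bp, pooled or in either replicate. Among the 1087 genes with windows at least that long, 84.5% had a candidate (82.3 to 86.6) and 47.4% a thresholded summit (44.4 to 50.4), and 168 (15.5%) had none. The median of that group was 4 candidates per window.

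The empty stretch around hsf-1 reached far past the gene. Pooled summits were lacking from 11949630 to 11977748, a stretch of 28118 bp, and only 349 stretches (1.16%) were longer. It measured 28124 bp in replicate 1, where 1.21% of stretches were longer, and 28131 bp in replicate 2, where 0.657% were. The nearest candidate was 13455 bp downstream of the start, beyond the 3′ end, with signal 25.2 at rank 20192, and the nearest thresholded summit was 15666 bp upstream, with signal 96.6 at rank 5736. Of the neighbouring genes, R06C1.6, 353 bp away, had a strongest signal of 29.6, and Y53C10A.15, 8094 bp away, had no candidate.

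In the window of hsf-1, 97.9% of the 50-base windows occur once, where the median gene had 100%. This share counts exact copies only. The window of hsf-1 was rich in annotated repeats. The reference marks 64.2% of it as repeated or low-complexity sequence, where the median gene had 29.1%, and 430 genes (2.15%) had at least as much. Whether either share moved with the lack of summits was not tested.

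**Figure D4:**
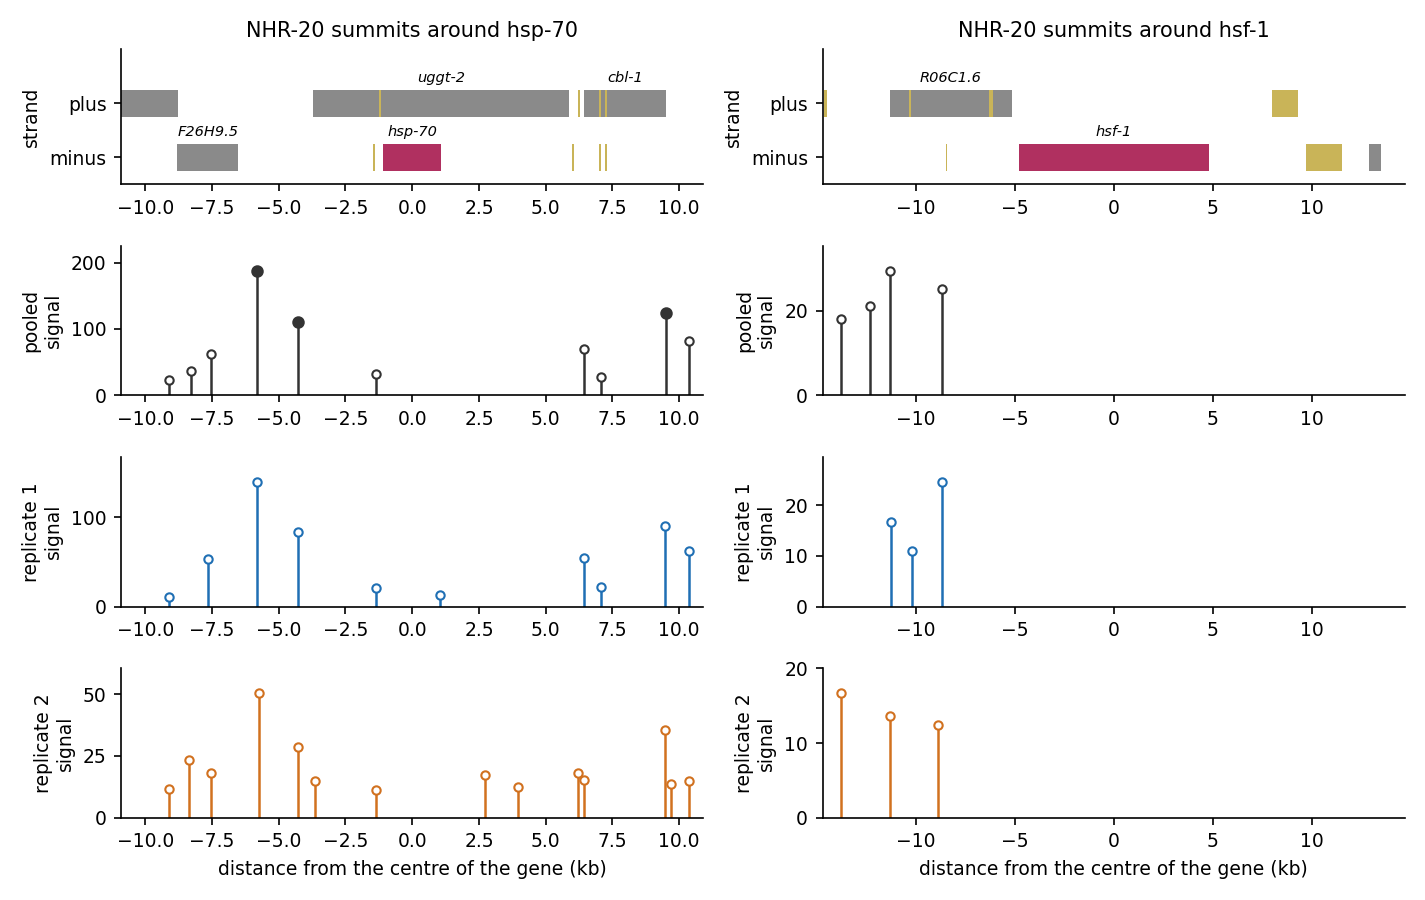
Signal of each summit (vertical axes, one per list, in the units of the authors' caller) against distance from the centre of hsp-70 (left) or hsf-1 (right) in kb, with genes by strand on top, members in red and noncoding genes in yellow. Filled points are thresholded; within hsp-70 the only summit is a weak one in replicate 1, and no list has a summit in hsf-1 or in the part shown to its right.

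Heat shock elements marked 7 of the 8 promoters, where a promoter was taken from 250 bp upstream to 50 bp downstream of the annotated start. A match with 3 alternating units was present at every member but hsf-1, and in 393 (1.97%) of all promoters. A match with 2 units, GAANNTTC or TTCNNGAA on either strand, was likewise present at every member but hsf-1, and in 32.5% of all promoters. At hsf-1 such a match lay 288 bp upstream, so that with 500 bp upstream all 8 members had one, beside 52.1% of all promoters. Every 3-unit match contains 2-unit matches. The TATA box letters TATAAA, on either strand, were found in the promoters of hsp-16.1, hsp-16.11, hsp-16.2, hsp-16.41 and hsp-70, and in 37.9% of all. The match 184 bp upstream of hsp-16.41 is the same site as that 42 bp upstream of hsp-16.2. At hsp-16.48 and hsp-16.49 a match lay 286 bp upstream and at hsf-1 392 bp upstream, outside the promoter as defined here. AGGTCA, the classic element read by many nuclear receptors, was in none of the 8 and in 8.27% of all. A match describes letters only, and no match says only that these letters are not in this window.

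Between hsp-16.2 and hsp-16.41 the summit fell between both 3-unit matches. Their centres lay 71 bp to its left and 83 bp to its right, and the right one runs across the annotated start of hsp-16.41, which is why its last letters are missing from the printed interval. The TATAAA letters were 95 bp to the left. The summit of replicate 2 was closer to the left element, at 29 bp. As for whole regions, the pooled one, 1805084 to 1805186, contained the right match but not the left. The regions of replicate 1 (1804975 to 1805229) and replicate 2 (1804862 to 1805237) contained both matches. Around all thresholded summits, a 3-unit match within 100 bp was found at 71 of 6423 (1.11%), a 2-unit match at 14.9%, TATAAA at 15.4% and AGGTCA at 8.41%. The 71 summits had a median signal of 235, against 169 for all, and the one at hsp-16.2 took place 32 among them.

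The printed parts of the interval with a summit and of the intervals without one are built alike. The printed sequences of hsp-16.2 with hsp-16.41 and of hsp-16.1 with hsp-16.48 are 80.9% identical, with 178 identical letters, 30 mismatches and 12 gap positions, and the capitals stand in the same order in both. This compares all 220 bp of the first interval with 208 of the 348 bp of the other, and the rest was not compared. Coding sequences were also close, with 90.6% identity between hsp-16.1 and hsp-16.2 and 92.1% between hsp-16.41 and hsp-16.48, against 59.8% between hsp-16.1 and hsp-16.48. The first interval is 100% unique in 50-base windows and the second 0%.

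The HSP70 genes F44E5.4 and F44E5.5 offer a contrast to the cluster. They too are a divergent pair of near copies, and each gene alone has few unique 50-base windows, 1.86% and 2.09%, but the 350 bp between them are 98.3% unique. A thresholded summit lay there, at II 11759476, with signal 483 and rank 669, at rank 522 in replicate 1 and 1021 in replicate 2. Its printed surroundings hold 4 matches with 3 units, which partly overlap and take up 36 letters in all, and no TATAAA or AGGTCA. hsp-70 itself aligns to them with 77.8% to 80.2% identity, has a wholly unique window and had no pooled candidate. Among the closest relatives, then, F44E5.4 and F44E5.5 shared a strong summit and hsp-70 had none.

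Other genes of the heat shock response were counted in the same windows, and no test was made of the difference from the members. Of 27 listed genes, 26 were matched by name, all but hsf-2. Among these 26, 23 had a candidate, beside 61.0% of all protein-coding genes, and 16 a thresholded summit, beside 28.0%. hsp-12.1, F11F1.1 and ddl-2 had none. Their strongest signals had a median of 193, against 74.0 over all genes with a candidate.

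Other small heat shock genes had modest summits, with a candidate at 9 of 10, a thresholded summit at 5 and a median signal of 95.1. sip-1 led with 379 and was followed by hsp-12.3 (193), hsp-12.2 (139), hsp-25 (126) and hsp-16.20 (95.1). The summits of sip-1 and hsp-12.3 also lay in windows of neighbouring genes. That of hsp-12.3 was in an untranslated exon, 698 bp downstream of its start. hsp-16.2 and hsp-16.41, at 268, would stand second in this group. Among the other HSP70 and HSP110 genes, 7 of 8 had a candidate and 6 a thresholded summit, with a median of 483. F44E5.4 and F44E5.5 share the summit with signal 483, which is counted for both genes and is that median. The constitutive cytosolic hsp-1 had 1173, the endoplasmic reticulum chaperone hsp-3 had 1034, hsp-110, which shares its summit with the proteasome gene rpn-3, had 966, and the mitochondrial hsp-6 had 455. The summits of hsp-3 and hsp-6 also lay in the window of a neighbouring gene.

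Genes that act on HSF-1 or work with its chaperone partners included 7 of 8 with a candidate and 5 with a thresholded summit, with a median of 210. dnj-13, an HSP40 cochaperone, had 1244, hsp-90, whose product restrains HSF1 in mammals, had 1166, and the HSP90 cochaperone sti-1 had 571. ddl-1, which encodes a partner of the HSF-1 inhibitor HSB-1, had 210 and the p23 homolog daf-41 had 124. Several of these summits also lie in windows of neighbouring genes. No statement on the binding of heat shock genes as a class follows, since the members and lists were chosen with results known.

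**Figure D5:**
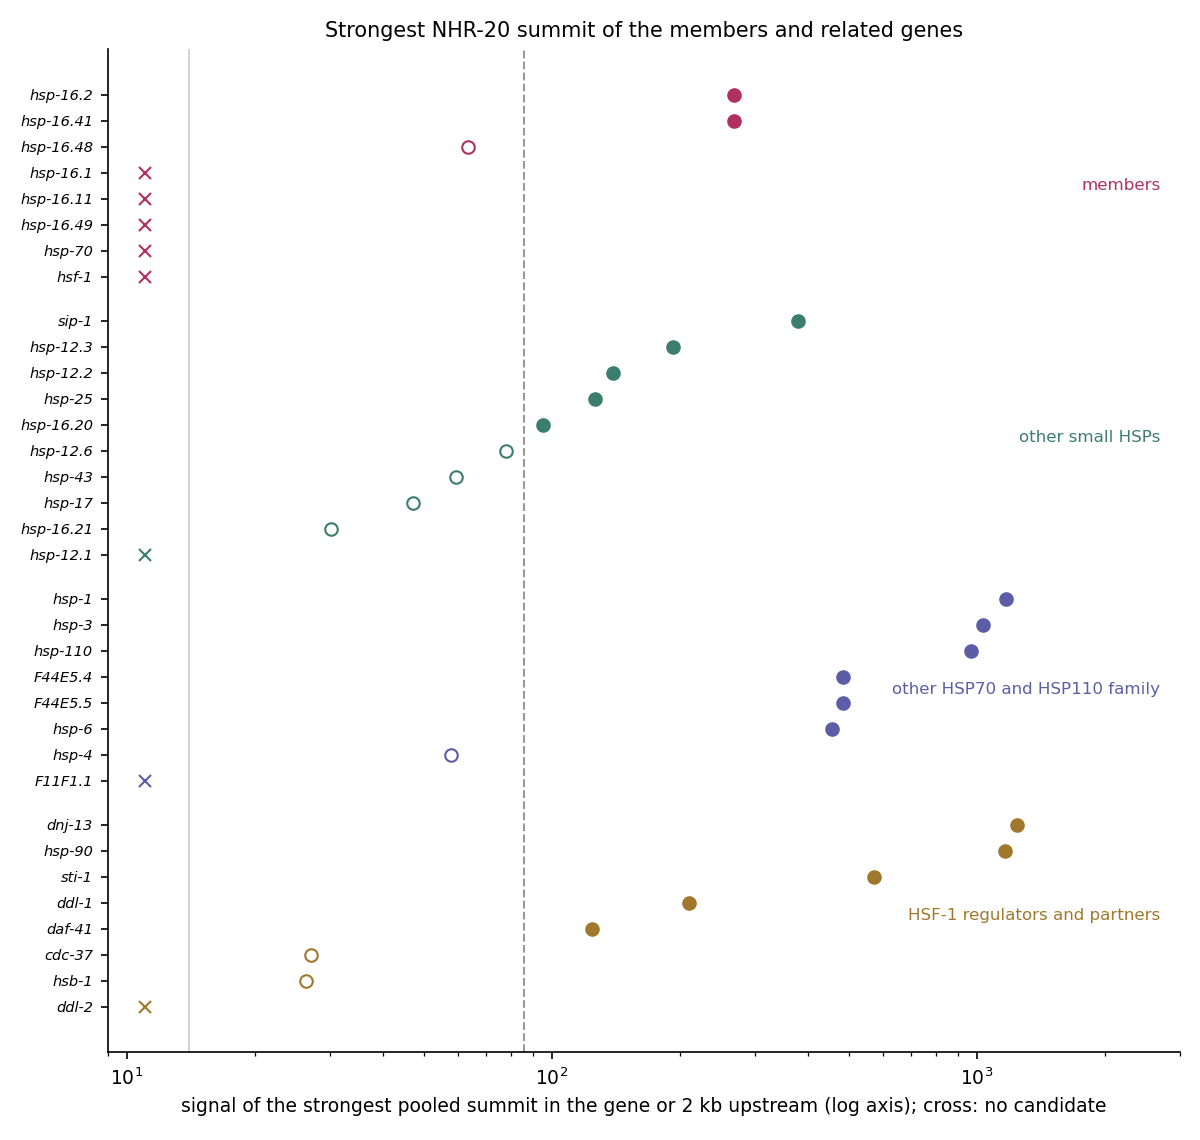
Signal of the strongest pooled summit in the gene or 2 kb upstream (horizontal axis, log scale) for each of the 8 members and 26 related genes, grouped by list. Filled points have a thresholded summit in the window, open points a candidate only, crosses none; the dashed line is the lowest thresholded signal, 86.0, and hsp-16.2 and hsp-16.41 share the point at 268.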

How the data were processed

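Regions enriched for NHR-20 were compared with gene models, not with other samples, since the series holds 1 group of 2 biological replicates. The authors deposited narrowPeak lists on ce10 and ce11, with a signal per region and a −log10 q-value. Regions were called per replicate and on the pooled replicates, each against a control alignment, per the notes deposited by the authors. The aligner, peak caller, threshold and read length were not given in the sources used here, and sequencing depth is unknown, so no error could be set on a signal. The deposited signal was used as it stands, and no value was rescaled.

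Summits (column 2 plus column 10) on ce11 were assigned to genes of the Ensembl annotation, release 115, with names from RefSeq through WormBase identifiers, because that annotation names hsp-16.11 and hsp-16.49 as their copies. Replicate summits were matched within 200 bp. The share of 50-base windows that occur once on either strand was counted over the genome (RefSeq copy of WBcel235), also with 36 and 100 bases. Copies were aligned with BLAST+ 2.17.0 and biopython 1.88. Other work used Python 3.11.15, numpy 2.4.6, pandas 2.3.3, scipy 1.17.1 and matplotlib 3.10.9. Uniqueness and window assignment were tested on simulated data. Binomial intervals are exact, at 95%, and cover counting error only.

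The members and lists were chosen with earlier results of these data known, so no test was run over them. Named genes are the members, genes that share their summits, nearest protein-coding neighbours, listed genes with a thresholded summit and the genes next in order. The other genes named without a summit were chosen after their values were seen. Alternatives covered the window, annotation, build, match distance, window length, promoter length, a stricter list and each replicate alone.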

Additional observations from a re-analysis of the deposited data

How the results depend on the processing

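The central summit between hsp-16.2 and hsp-16.41 was counted under every alternative. The number of members with a candidate rose from 3 to 5 with 5 kb upstream (hsp-16.11 and hsp-16.49 were added). The share of all genes with a candidate rose there from 61.0% to 71.9%. The member count ranged from 4 to 5 when either replicate was left out, where hsp-70 was added by both lists and hsp-16.49 by replicate 1. The share of all genes was 66.2% without replicate 1 and 60.1% without replicate 2. The member count was 2, without hsp-16.48, with 1 kb upstream, with promoters only, from 1000 bp upstream to 300 bp downstream, and with windows ended at the nearest gene. The shares of all genes in these settings were 55.2%, 47.3% and 56.6%. The number with a thresholded summit rose from 2 to 4 with 5 kb upstream (hsp-16.48 and hsp-16.49 were added) and was 2 under each other alternative, from 2 to 2 without either replicate. With a replicate left out, the strongest 6423 regions of the other replicate's list stood in for the thresholded list. Over all genes, 5601 had a thresholded summit and 3402 had one above the median thresholded signal, and their other counts stayed within 1.5 times. Among members with at least 50% unique sequence, a setting chosen after seeing the data, 2 of 4 had a candidate, and 2 a thresholded summit. Without that limit the shares of all genes were 61.0% and 28.0%.

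The match in replicate 2 of the summit at 9086142 was lost within 100 bp, so that setting gives no rank. Of 36 other settings 27 changed nothing beyond their limits and 9 moved, all of them uniqueness shares with 36 or 100 bases. On ce10 pooled ranks shifted by at most 3, although the weakest summit, at 1806187, had 3 possible matches there by signal and width. No paired analysis was possible because the series has a single group. Depth limits the lists in an unknown way, and sequence without unique windows cannot be judged.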

Other observations

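Of the 393 genes with a 3-unit heat shock element in the promoter, 112 (28.5%) had a thresholded summit in the gene or 2 kb upstream, beside 28.0% of all genes. A candidate was present at 234 (59.5%), beside 61.0% of all genes, and 159 had none. Among thresholded summits with such a match within 100 bp, the strongest, chosen here after their values were seen, lay at X 16929780 in no gene window (signal 1284), at hsp-60, which encodes the mitochondrial chaperonin (1242), at bag-1, a cochaperone gene of HSP70, with syp-6 (1005), and at rpn-3 with hsp-110 (966). The strong regions right of the hsp-16.1 cluster were held by both replicates, at ranks 320 and 195 in replicate 1 and 209 and 173 in replicate 2.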
